A study of Mus musculus with 10 samples.

Results

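Described here, in mouse embryonic stem cells, are 10 genes whose products modify or fold collagen in the endoplasmic reticulum (ER) or return proteins to it. They are Plod1, Plod2, Plod3, Colgalt1, P4ha1, P4ha2, P4hb, Serpinh1, Kdelr2 and Kdelr3. They were chosen by symbol from a table of ribosome footprint counts that held 11011 genes, and 10 of 10 were in the table and passed the filter on low counts. Ribosome footprints are pieces of mRNA that a ribosome protects when the rest is digested. The table held no mRNA libraries, so a change in footprints cannot be told apart from a change in mRNA amount.

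There were 10 libraries of the E14 line, which has a 129/Ola background, 2 in each of 5 groups. The groups were labelled Dgcr8 knockout, Drosha knockout, Dicer knockout, Ago1&Ago2 double knockout and wild type (WT). All were grown in serum plus the cytokine LIF, which keeps them undifferentiated, and were treated with cycloheximide before lysis. The labels give neither how the alleles were made nor whether each knockout was 1 clone, and they do not say whether the libraries of a group came from separate cultures. The p-values therefore measure the spread between these libraries, which may be technical. Dgcr8 and Drosha cut primary miRNA transcripts, Dicer cuts their precursors, and Ago1 and Ago2 hold the mature miRNAs.

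Collagen chains are made into the ER, where they are modified before and while they wind into a helix. Prolyl hydroxylases, with catalytic subunits P4ha1 and P4ha2 and the partner subunit P4hb, hydroxylate prolines, which makes the helix stable at body temperature. The Plod enzymes hydroxylate lysines, and Colgalt1 adds galactose to the hydroxylysines. Serpinh1, also called HSP47, is a chaperone that binds the folded helix, and the KDEL receptors Kdelr2 and Kdelr3 return escaped ER proteins, Serpinh1 among them, from the Golgi. Embryonic stem cells make little fibrillar collagen, while type IV collagen is a main product of the extraembryonic endoderm.

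Levels are given in CPM, the counts of a gene scaled to the same total in each library. The libraries differed widely in depth, from 1754710 to 80850950 counts. The shallowest were the Drosha and Dicer libraries and the second library labelled Dgcr8 knockout. Footprints of Drosha, Dicer1 and Ago2 were lower in the libraries labelled as their knockouts. Dgcr8 went against its label, with 145 and 146 CPM in the libraries labelled Dgcr8 knockout, against 32.7 and 33.1 CPM in WT. Ago1 had 27.0 and 10.7 CPM in the libraries labelled Ago1&Ago2 double knockout, against 14.7 and 14.3 CPM in WT. How much of each gene was deleted is not in the labels, and footprints on a remaining part would still be counted. The first library labelled Dgcr8 knockout was closer to WT than to its own replicate, with a Pearson r across genes of 0.959 and 0.947 with the WT libraries and 0.928 with the second one. The second one was also shallower than WT, at 4955916 counts against 11082243 and 23731070, and the part of depth in these r was not tested. Results for the libraries labelled Dgcr8 knockout and for the mean of the knockouts are given with and without that first library. It was singled out after its values were seen, and leaving out the replicate nearer to WT tends to widen differences from WT. The embryonic stem cell markers were present in every library, with a summed level between 4199 and 5599 CPM. That sum mixes markers that differed in direction. In the Dicer knockout Dppa5a had 2631 and 1516 CPM, against 1082 and 1107 CPM in WT. Zfp42 had 635 and 659 CPM in the Dicer knockout, against 1091 and 1176 CPM in WT. At an unadjusted p under 0.05 by edgeR, 3 of the 8 markers were lower and 0 higher in that knockout.

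The 10 genes together took a smaller share of all counts in each knockout library than in either WT library. The share was 0.448% and 0.270% in the libraries labelled Dgcr8 knockout, 0.355% and 0.234% in the Drosha knockout libraries, 0.346% and 0.269% in the Dicer knockout libraries, and 0.400% and 0.332% in the libraries labelled Ago1&Ago2 double knockout. In WT it was 0.588% and 0.507%. The first library had the larger share in every group. The members were far from equal in level. Per kilobase of coding length, P4hb and Serpinh1 led in WT, at 1138 ± 230.4 and 937 ± 91.8 CPM per kb (SD, n = 2), and their libraries overlapped. Kdelr2 followed at 716 ± 150.1 and Kdelr3 at 494 ± 13.6 CPM per kb, then Plod2 at 214 ± 16.2, P4ha1 at 198 ± 14.8 and P4ha2 at 194 ± 1.19 CPM per kb, where each overlapped its neighbour. Colgalt1 stood at 181 ± 12.7 CPM per kb, and the WT libraries of Plod1 and Plod3 overlapped each other at the low end, at 84.4 ± 13.8 and 82.3 ± 14.8 CPM per kb.

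**Figure D1:**
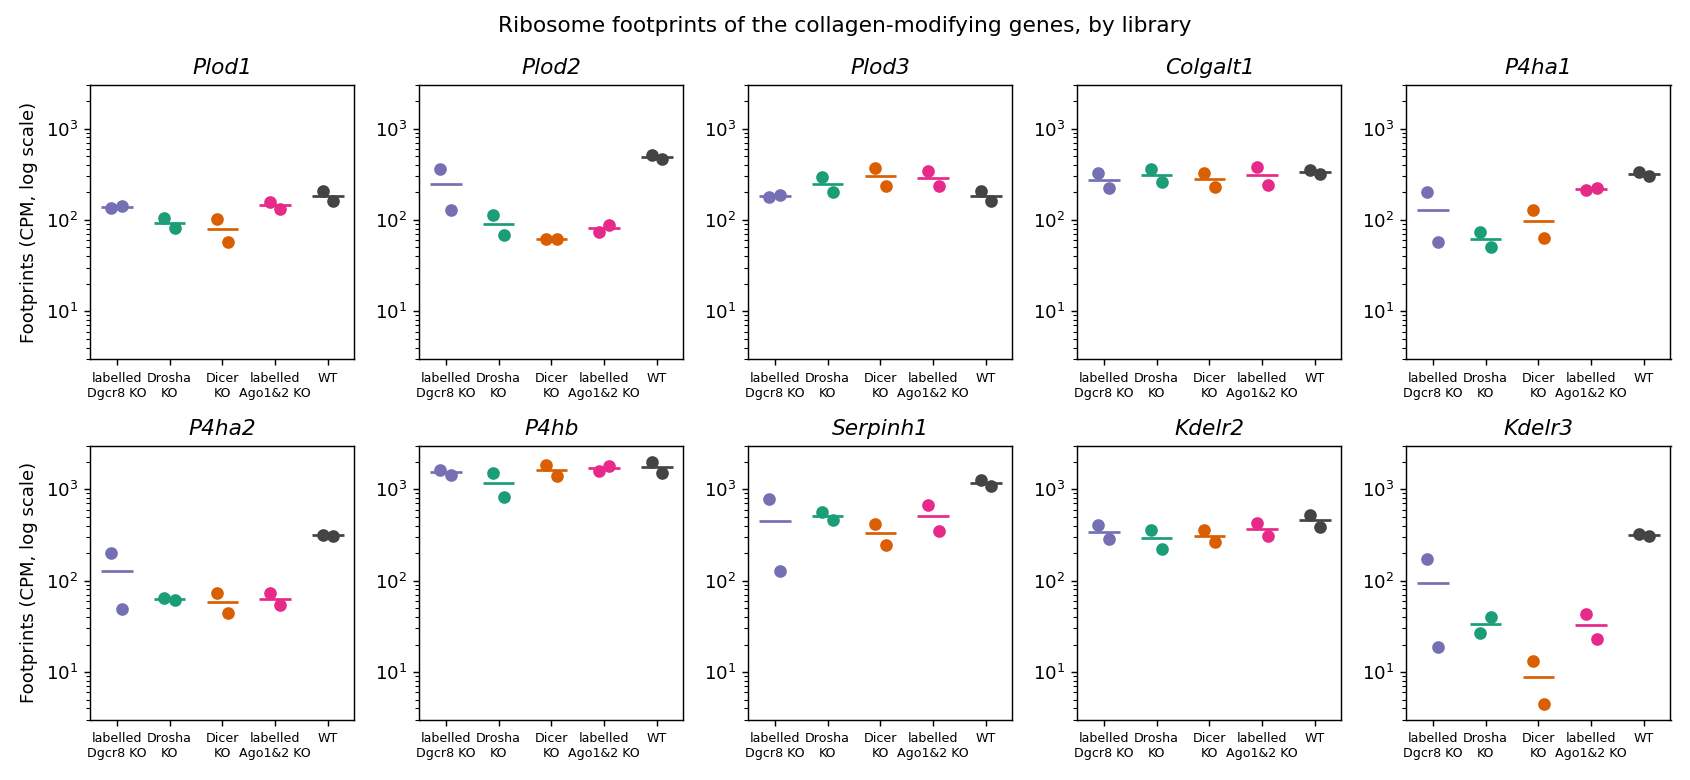
Footprint level of each gene in CPM on a log axis, with 1 point per library, a bar at the mean of the 2 libraries, and the groups along the horizontal axis with WT at the right. Kdelr3, Plod2 and P4ha2 lie lower in every knockout library than in WT, at 4.41 to 171 CPM for Kdelr3 against 311 and 324 CPM, while P4hb, Colgalt1 and Kdelr2 overlap WT in at least some groups.

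Promoters of the members, called or not, are shown by the stretches that hold the letters ACGTG, the core of the element bound by hypoxia-inducible factors, which are known to drive P4ha1, P4ha2 and Plod2 under low oxygen. RefSeq windows on GRCm38.p6, 250 bases before to 50 after each gene's start, were at hand for 8 of the 10 genes, and Plod2 and Kdelr2 had no entry. A gene can have more than 1 window, and a match in any of them was counted. The letters, read on both strands, occurred in 6 of these 8 genes and in 30.2% of the 8733 genes of the table with a window. Each stretch reads 5′ to 3′ on the gene's strand, and the capitals mark ACGTG or, for a match on the other strand, its complement CACGT.
Kdelr3, chr15:79516317-79516344, plus strand: gtcggcgtggggACGTGagaagcgctgc
Kdelr3, chr15:79516367-79516394, plus strand: tggccgccccgcCACGTcaccgcgcggc
P4ha1, chr10:59323268-59323295, plus strand: tgtgacagagcgCACGTagcgagggctg
P4ha2, chr11:54100834-54100861, plus strand: tgtgcatcgcatACGTGcagcgcgtggc
P4ha2, chr11:54100922-54100949, plus strand: cgggaggtggggACGTGgcggaggctca
Serpinh1, chr7:99353395-99353422, minus strand: accctgcttttcCACGTccaggaccgcg
Plod3, chr5:136986953-136986980, plus strand: cttgaagtcattACGTGatgttcccttg
P4hb, chr11:120573294-120573321, minus strand: tccgcccactgcCACGTtcgacggagaa
P4hb, chr11:120573204-120573231, minus strand: gcagccattccagACGTGtggaaggcgt
By the main edgeR fit, without a replicate block, the letters are held by genes called lower in at least 1 knockout (Kdelr3, P4ha1, P4ha2). They are also held by genes that this fit called in no comparison with WT (Serpinh1, Plod3, P4hb). Plod1, called lower in the Dicer knockout, and Colgalt1, called in none, have windows without them. The related core GCGTG, which can share 1 base with ACGTG on the same strand, was in 7 of 8 genes and in 58.1% of all genes with a window. The heat shock letters TTCNNGAA were in 2 of 8 genes (P4ha2 and Colgalt1) and in 7.83% of all. GAANNTTC, which can overlap it, was in 2 of 8 (Plod1 and Colgalt1) and in 6.76% of all. The ER stress element was in 0 of 8 genes and in 0.172% of all.

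Kdelr3 had the largest change of the 10 genes. It had 171 and 18.9 CPM in the libraries labelled Dgcr8 knockout, 26.9 and 39.8 CPM in the Drosha knockout, 13.1 and 4.41 CPM in the Dicer knockout, and 42.9 and 23.0 CPM in the libraries labelled Ago1&Ago2 double knockout, against 324 and 311 CPM in WT. Every knockout library lay below both WT libraries, and the first library labelled Dgcr8 knockout was the nearest to them. Kdelr3 was 33.5-fold lower in the Dicer knockout (log2 fold change -5.06 ± 0.88, SE; edgeR quasi-likelihood test, Benjamini-Hochberg adjusted p = 0.0050). That value rests on 66 and 8 counts in the Dicer libraries, against 3509 and 7502 counts in WT, so its size is loosely known. It also fell in the Drosha knockout, at a log2 fold change of -3.25 ± 0.80 (edgeR adjusted p = 0.0495), and at -3.27 ± 0.78 in the libraries labelled Ago1&Ago2 double knockout (edgeR adjusted p = 0.0471).

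Its paralog Kdelr2 behaved otherwise. Kdelr2 had 403 and 285 CPM in the libraries labelled Dgcr8 knockout, 355 and 224 CPM in the Drosha knockout, 358 and 264 CPM in the Dicer knockout, and 431 and 305 CPM in the libraries labelled Ago1&Ago2 double knockout, against 523 and 388 CPM in WT. In the Drosha and Dicer knockouts both libraries were below WT, while the other groups overlapped it. Each first knockout library was below the first WT library, and each second one below the second, although the labels do not pair libraries. By edgeR Kdelr2 passed the test in none of the comparisons with WT (log2 fold changes -0.65 to -0.31). Within a library, free of any scaling between libraries, Kdelr3 made up 29.6% and 6.18% of the Kdelr2 and Kdelr3 footprints per kilobase in the libraries labelled Dgcr8 knockout, 6.98% and 14.9% in the Drosha knockout libraries, 3.48% and 1.63% in the Dicer knockout libraries, and 8.97% and 6.94% in the libraries labelled Ago1&Ago2 double knockout. In WT the share was 38.0% and 44.3%, above every knockout library. The coding sequences of Kdelr2 and Kdelr3 share no stretch of 28 bases with each other or with another gene in GENCODE M21, which bears on reads that could be assigned to either.

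Plod2, the lysyl hydroxylase that acts on the telopeptides of collagen, fell the most of the 3 Plod genes in the Drosha and Dicer knockouts and the libraries labelled Ago1&Ago2 double knockout. Plod2 had 361 and 130 CPM in the libraries labelled Dgcr8 knockout, 114 and 67.7 CPM in the Drosha knockout, 61.9 and 61.2 CPM in the Dicer knockout, and 73.8 and 88.5 CPM in the libraries labelled Ago1&Ago2 double knockout, against 513 and 461 CPM in WT. No knockout library reached WT. Plod2 fell, with a log2 fold change of -2.98 ± 0.45 in the Dicer knockout (edgeR adjusted p = 0.0029), of -2.59 ± 0.44 in the libraries labelled Ago1&Ago2 double knockout (edgeR adjusted p = 0.0161) and of -2.42 ± 0.44 in the Drosha knockout (edgeR adjusted p = 0.0175). Of its 2274 coding bases, 109 are overlapped by an unconfirmed transcript on the opposite strand, and the sources used here do not give the strand setting of the counting.

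Plod1, which hydroxylates lysines within the helix, moved less. Plod1 had 135 and 141 CPM in the libraries labelled Dgcr8 knockout, 104 and 80.8 CPM in the Drosha knockout, 101 and 56.8 CPM in the Dicer knockout, and 158 and 130 CPM in the libraries labelled Ago1&Ago2 double knockout, against 206 and 163 CPM in WT. Again no knockout library reached WT, and the Dicer knockout passed the test, at a log2 fold change of -1.21 ± 0.32 (edgeR adjusted p = 0.0322). Plod3 carries both lysyl hydroxylase and glycosyltransferase activity. Plod3 had 177 and 186 CPM in the libraries labelled Dgcr8 knockout, 293 and 201 CPM in the Drosha knockout, 374 and 237 CPM in the Dicer knockout, and 339 and 234 CPM in the libraries labelled Ago1&Ago2 double knockout, against 206 and 160 CPM in WT. Both Dicer libraries and both libraries labelled Ago1&Ago2 double knockout were above WT, but Plod3 passed the test in no comparison by edgeR. Its largest log2 fold change was 0.74 ± 0.32 in the Dicer knockout, with an unadjusted p of 0.0408 by edgeR, and 127 of its 2223 coding bases are overlapped by exons of other genes.

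The make-up of the lysyl hydroxylases thus differed in the knockout libraries. Plod2 took 52.8% and 27.7% of the Plod footprints per kilobase in the libraries labelled Dgcr8 knockout, 21.9% and 18.9% in the Drosha knockout libraries, 11.3% and 16.9% in the Dicer knockout libraries, 12.6% and 19.1% in the libraries labelled Ago1&Ago2 double knockout, and 54.7% and 58.1% in WT. Plod3 took 26.6% and 40.7% in the libraries labelled Dgcr8 knockout, 57.3% and 57.6% in the Drosha knockout libraries, 69.6% and 66.8% in the Dicer knockout libraries, 59.3% and 51.6% in the libraries labelled Ago1&Ago2 double knockout, and 22.5% and 20.6% in WT. Plod2 was the leading Plod gene in WT and in the first library labelled Dgcr8 knockout, and Plod3 led in the other 7 libraries. Colgalt1, the next enzyme in line, ranged from 225 to 376 CPM over the knockout libraries, against 352 and 318 CPM in WT, and its log2 fold changes lay between -0.28 and -0.10, with the groups overlapping in each comparison.

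**Figure D2:**
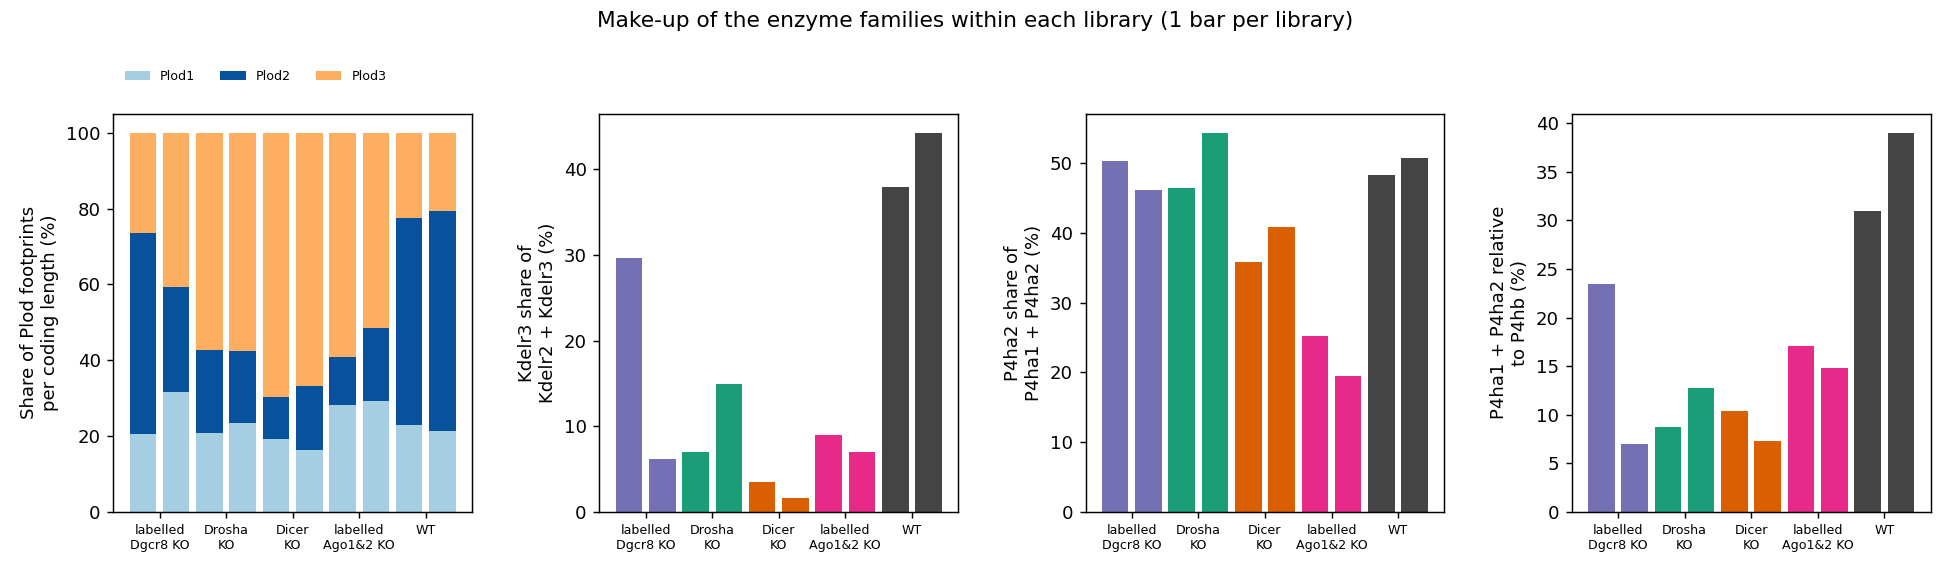
Shares in percent within each library, computed from CPM per kilobase of coding length, with 1 bar per library and WT at the right: the 3 Plod genes stacked, Kdelr3 among the KDEL receptors, P4ha2 among the catalytic subunits, and the catalytic subunits relative to P4hb. Plod3 takes 51.6% to 69.6% in the Drosha and Dicer knockouts and the libraries labelled Ago1&Ago2 double knockout, against 20.6% and 22.5% in WT.

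Both catalytic subunits of prolyl hydroxylase were lower in the knockout libraries, while their partner P4hb was not. P4ha2 had 203 and 48.8 CPM in the libraries labelled Dgcr8 knockout, 64.4 and 60.7 CPM in the Drosha knockout, 72.8 and 44.1 CPM in the Dicer knockout, and 72.8 and 54.7 CPM in the libraries labelled Ago1&Ago2 double knockout, against 314 and 311 CPM in WT. P4ha2 fell, with a log2 fold change of -2.32 ± 0.53 in the Drosha knockout (edgeR adjusted p = 0.0375), of -2.40 ± 0.53 in the Dicer knockout (edgeR adjusted p = 0.0157) and of -2.29 ± 0.52 in the libraries labelled Ago1&Ago2 double knockout (edgeR adjusted p = 0.0411). No knockout library overlapped WT for P4ha2.

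P4ha1 had 200 and 56.6 CPM in the libraries labelled Dgcr8 knockout, 73.9 and 50.7 CPM in the Drosha knockout, 130 and 63.4 CPM in the Dicer knockout, and 215 and 226 CPM in the libraries labelled Ago1&Ago2 double knockout, against 334 and 300 CPM in WT. Its groups did not overlap WT either, but the libraries labelled Ago1&Ago2 double knockout were much nearer to WT than for P4ha2. P4ha1 fell by 2.35 ± 0.52 on the log2 scale in the Drosha knockout (edgeR adjusted p = 0.0339), and its log2 fold change was -1.70 ± 0.51 in the Dicer knockout (edgeR adjusted p = 0.0512) and -0.53 ± 0.49 in the libraries labelled Ago1&Ago2 double knockout. P4ha2 made up 25.2% and 19.4% of the 2 catalytic subunits per kilobase in the libraries labelled Ago1&Ago2 double knockout, against 48.3% and 50.7% in WT, and 35.8% and 40.9% in the Dicer knockout libraries. The Drosha knockout, at 46.4% and 54.4%, and the libraries labelled Dgcr8 knockout, at 50.3% and 46.2%, lay around WT.

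P4hb, which is also the general protein disulfide isomerase of the ER, had 1632 and 1446 CPM in the libraries labelled Dgcr8 knockout, 1512 and 830 CPM in the Drosha knockout, 1860 and 1396 CPM in the Dicer knockout, and 1603 and 1808 CPM in the libraries labelled Ago1&Ago2 double knockout, against 1987 and 1489 CPM in WT. Each group overlapped WT, and the log2 fold changes lay between -0.57 and -0.03. Set against P4hb in the same library and per kilobase, P4ha1 and P4ha2 together came to 23.5% and 6.93% in the libraries labelled Dgcr8 knockout, 8.69% and 12.7% in the Drosha knockout libraries, 10.3% and 7.33% in the Dicer knockout libraries, and 17.1% and 14.8% in the libraries labelled Ago1&Ago2 double knockout. In WT they came to 31.0% and 39.0%, above every knockout library.

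Serpinh1 had 781 and 126 CPM in the libraries labelled Dgcr8 knockout, 563 and 463 CPM in the Drosha knockout, 419 and 247 CPM in the Dicer knockout, and 670 and 352 CPM in the libraries labelled Ago1&Ago2 double knockout, against 1253 and 1091 CPM in WT. No knockout library reached WT, yet Serpinh1 passed the test in no single comparison by edgeR. The nearest was the Dicer knockout, at a log2 fold change of -1.81 ± 0.64 (edgeR adjusted p = 0.0915), which DESeq2 called (adjusted p = 0.0174). The spread was widest in the libraries labelled Dgcr8 knockout, where Serpinh1 relative to P4hb was 58.4% and 10.6% per kilobase, against 77.0% and 89.4% in WT.

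Across the 10 genes, the Drosha knockout had 4 lower calls (Plod2, P4ha1, P4ha2 and Kdelr3) by edgeR, where 0.966% of all genes tested were called lower and 2.48% higher. None of the 10 was called higher by edgeR, by DESeq2 or by limma-voom, and none had an unadjusted p under 0.05 in that direction, as 11.1% of all genes had. In 7 of 10 both libraries lay below WT, against 27.9% of all genes. The median log2 fold change of the 10 was -1.09, against -0.01 over all genes. The Drosha calls depended on single libraries. Plod2 was lost without the second Drosha library or either WT library (edgeR adjusted p 0.0952 to 0.170), P4ha1 without either Drosha or either WT library (0.0933 to 0.206), and P4ha2 without any of these or the second Dicer library (0.0544 to 0.213, edgeR). Kdelr3 was lost without any 1 library other than those labelled Dgcr8 knockout (edgeR adjusted p 0.051 to 0.216). With limma-voom the adjusted p was 0.0779 for P4ha1, 0.0949 for P4ha2 and 0.155 for Kdelr3, and Plod2 alone was called.

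In the Dicer knockout 4 genes were called lower (Plod1, Plod2, P4ha2 and Kdelr3), where 3.76% of all genes were called lower and 7.35% higher. None was called higher by edgeR, by DESeq2 or by limma-voom, and 1 of 10 (Plod3) had an unadjusted p under 0.05 in that direction, against 15.1% of all genes. Both libraries lay below WT in 7 of 10, against 34.6% of all genes, and above WT in 1 of 10, against 32.7%. The median was -1.46, against 0.00 over all genes. Plod2 and Kdelr3 kept their calls in each of 18 alternatives, with log2 fold changes from -6.16 to -4.60 for Kdelr3 and from -3.06 to -2.92 for Plod2 when 1 library was left out. Plod1 and P4ha2 were lost without either Dicer library or either WT library (edgeR adjusted p 0.0531 to 0.217 for Plod1 and 0.0568 to 0.108 for P4ha2). P4ha1 and Serpinh1 passed when the libraries labelled Dgcr8 knockout were left out of the fit (edgeR adjusted p = 0.0127 and 0.0138).

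The libraries labelled Ago1&Ago2 double knockout had 3 lower calls (Plod2, P4ha2 and Kdelr3), where 0.902% of all genes were called lower and 1.98% higher. None was called higher by the 3 tools, and none had an unadjusted p under 0.05 in that direction by edgeR, as 11.8% of all genes had. Both libraries lay below WT in 6 of 10, against 26.1% of all genes, and above WT in 1 of 10 (Plod3), against 27.2%. The median was -0.44, against 0.04 over all genes. Leaving out either library of this group or either WT library ended each of the 3 calls. The adjusted p was then 0.0511 to 0.169 for Plod2. P4ha2 was also lost without the first Drosha or the second Dicer library, and Kdelr3 without any 1 of the Drosha and Dicer libraries (edgeR adjusted p up to 0.247 for both).

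In the libraries labelled Dgcr8 knockout 0 of 10 genes were called by edgeR, by DESeq2 or by limma-voom, where 0.0182% of all genes were called lower and 0.0547% higher by edgeR. Unadjusted p was under 0.05 in 4 of 10 (Plod2, P4ha1, P4ha2 and Kdelr3), all lower, where 4.71% of all genes were lower at that level. Each of the 10 had a negative log2 fold change, with a median of -0.70 against 0.02 over all genes, although that of Plod3 was -0.01 and changed sign under other scalings. Both libraries lay below WT in 6 of 10, against 22.9% of all genes. Without the first library, which resembled WT, 4 of the 10 genes were called lower, where 0.456% of all genes were, with the lone second library assumed to vary like the other groups. The log2 fold change was then -4.07 for Kdelr3 (edgeR adjusted p = 0.022), -2.68 for P4ha2 (edgeR adjusted p = 0.022), -3.22 for Serpinh1 (edgeR adjusted p = 0.0256) and -2.49 for P4ha1 (edgeR adjusted p = 0.0413). The value of Plod2 was -1.91 (edgeR adjusted p = 0.0534).

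**Figure D3:**
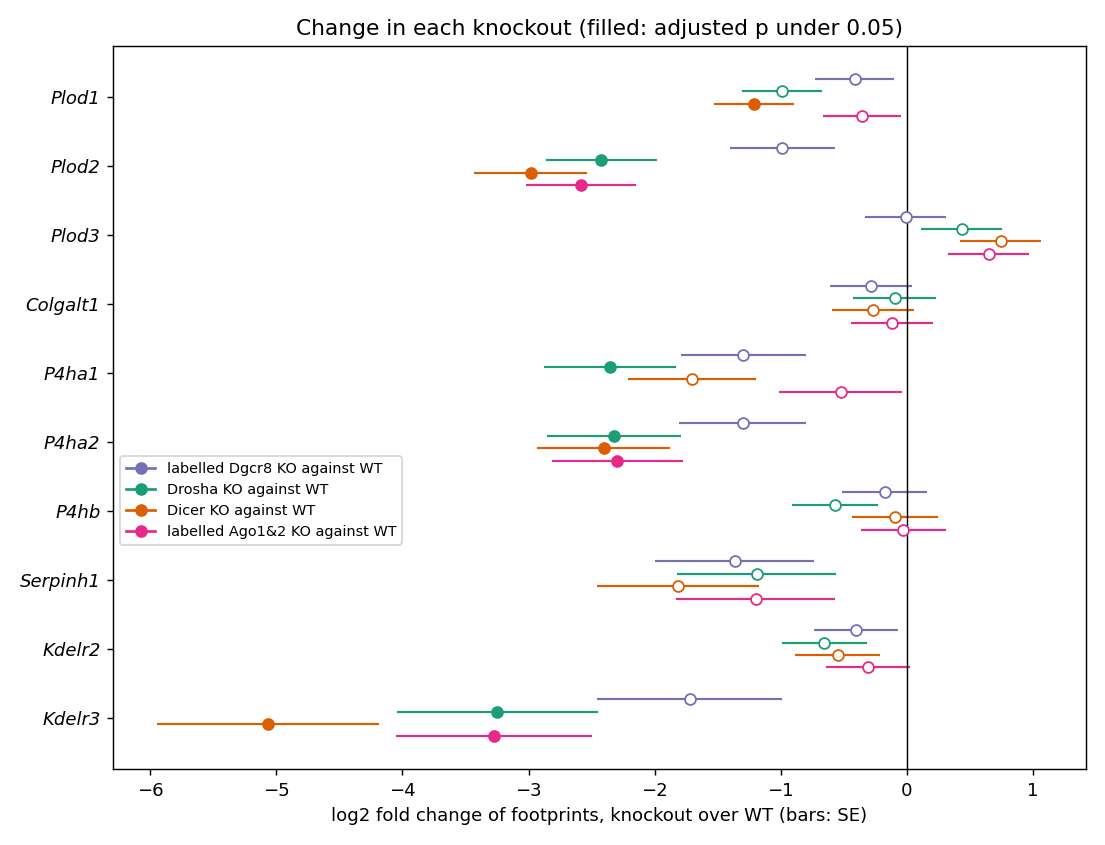
log2 fold change of each gene in each knockout over WT, with the SE as a bar, knockouts drawn from top to bottom in each row and filled points for an adjusted p under 0.05 by edgeR. Kdelr3 lies farthest to the left in each of the 4 knockouts, down to -5.06 in the Dicer knockout, and Plod3 lies at or right of 0 apart from -0.01 in the libraries labelled Dgcr8 knockout.

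Taking the mean of the 4 knockouts against WT, 4 of 10 genes were called lower by edgeR, where 3.26% of all genes were called lower and 3.81% higher. None was called higher by the 3 tools or had an unadjusted p under 0.05 in that direction by edgeR, as 12.8% of all genes had. The log2 fold changes were -3.33 ± 0.50 for Kdelr3 (edgeR adjusted p = 0.0059), -2.24 ± 0.29 for Plod2 (0.0035), -2.08 ± 0.35 for P4ha2 (0.0079) and -1.47 ± 0.36 for P4ha1 (0.0314). In 6 of 10 (the same 4 with Plod1 and Serpinh1) each of the 8 knockout libraries lay below both WT libraries, against 8.05% of all genes. Without the second WT library the 4 calls were lost (edgeR adjusted p = 0.0832 for Plod2, 0.0881 for Kdelr3 and up to 0.264 for the others). P4ha2 and P4ha1 were also lost without the first WT library, and P4ha1 without the second Dicer library. Without the first library labelled Dgcr8 knockout 5 of 10 were called lower, Serpinh1 being the fifth (edgeR adjusted p = 0.0038), where 4.61% of all genes were. With both libraries labelled Dgcr8 knockout left out, 6 of 10 were called lower, where 5.31% of all genes were, Plod1 (adjusted p = 0.0496) and Serpinh1 (adjusted p = 0.0116) having joined them by edgeR. The comparisons share the WT libraries and are therefore not independent of each other.

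The 6 comparisons between knockouts asked whether the knockouts differed from one another. Between the libraries labelled Dgcr8 knockout and the Dicer knockout, where 4.07% of all genes were called in either direction, 2 of 10 were called. Plod2 was higher in the libraries labelled Dgcr8 knockout by 2.00 ± 0.43 on the log2 scale (edgeR adjusted p = 0.0286), and Kdelr3 by 3.34 ± 0.83 (edgeR adjusted p = 0.0455). Without the first library labelled Dgcr8 knockout the values were 1.07 (adjusted p = 0.168) and 0.99 (adjusted p = 0.400) by edgeR. Both calls were also lost without either Dicer library (edgeR adjusted p 0.133 to 0.261), and that of Kdelr3 without any 1 Drosha, Ago1&Ago2 or WT library (0.0504 to 0.0704). Limma-voom called neither (adjusted p = 0.0502 for Plod2 and 0.314 for Kdelr3), and a fit of the 2 groups alone lost Kdelr3 (edgeR adjusted p = 0.0729).

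In the other 5 comparisons 0 of 10 were called by edgeR. The share of all genes called was 0.501% between the libraries labelled Dgcr8 knockout and the Drosha knockout, 0.483% between the libraries labelled Dgcr8 knockout and those labelled Ago1&Ago2 double knockout, and 0.00911% between the Drosha and Dicer knockouts. It was 0.0455% between the Drosha knockout and the libraries labelled Ago1&Ago2 double knockout, and 0.547% between the Dicer knockout and those labelled Ago1&Ago2 double knockout. Without the first library labelled Dgcr8 knockout 0 of 10 were called in any of the 6 comparisons. Unadjusted p was under 0.05 for 1, 1, 1, 1 and 3 of the 10 genes in these 5 comparisons, against 11.5%, 12.5%, 7.55%, 9.25% and 12.3% of all genes. DESeq2 called 1 gene in 3 of them, namely Plod2, higher in the libraries labelled Dgcr8 knockout than in the Drosha knockout and than in those labelled Ago1&Ago2 double knockout, and P4ha1, lower in the Drosha knockout than in those labelled Ago1&Ago2 double knockout by 1.81 on the log2 scale (DESeq2 adjusted p = 0.0294). By edgeR that P4ha1 difference was -1.83 ± 0.52, with an adjusted p of 0.284. The share of all genes that DESeq2 called in these comparisons was not worked out, so its calls here stand without a background. Limma-voom called 0 of 10 in each of the 6.

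The other genes of collagen folding and export in the ER, were represented by 17 of 20 distinct genes listed. Fkbp11, a prolyl isomerase, had 41.9 and 34.8 CPM in the Dicer knockout, against 141 and 101 CPM in WT, and fell by 1.65 ± 0.38 on the log2 scale (edgeR adjusted p = 0.0195). It was the 1 gene of the 17 called by edgeR in the 4 comparisons of single knockouts, and its call was lost without either Dicer or either WT library (edgeR adjusted p 0.0727 to 0.127). At an unadjusted p under 0.05 by edgeR, 1 of 17 was lower in the Drosha knockout (Fkbp11). In the libraries labelled Ago1&Ago2 double knockout 1 of 17 was higher at that level (Fkbp10). In those labelled Dgcr8 knockout 0 of 17 passed it in either direction. Neither DESeq2 nor limma-voom called any of the 17 in these groups. Ppib, the cyclophilin that works with the prolyl 3-hydroxylase, had 548 and 363 CPM in the Dicer knockout, against 724 and 567 CPM in WT. Crtap, of the same list, went the other way, with 428 and 264 CPM in the Dicer knockout against 221 and 130 CPM in WT. Its log2 fold change was 0.98 (edgeR unadjusted p = 0.0449). In that knockout 1 of 17 was higher and 1 lower at an unadjusted p under 0.05 by edgeR. The medians of the 17 were -0.16, -0.30, -0.11 and -0.09 in the libraries labelled Dgcr8 knockout, the Drosha knockout, the Dicer knockout and the libraries labelled Ago1&Ago2 double knockout, against -0.70, -1.09, -1.46 and -0.44 for the 10 members.

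General ER chaperones, 18 of 18 in the table, had median log2 fold changes from -0.30 to -0.02. Sdf2l1, a component of the ER chaperone complex, had 57.5 and 60.7 CPM in the Drosha knockout and 45.3 and 37.5 CPM in the Dicer knockout, against 140 and 149 CPM in WT. Sdf2l1 fell, with a log2 fold change of -1.80 ± 0.28 in the Dicer knockout (edgeR adjusted p = 0.0032), a call kept in 18 of 18 alternatives, and of -1.29 ± 0.27 in the Drosha knockout (edgeR adjusted p = 0.0304), where leaving out any 1 Drosha, Dicer or WT library ended it (0.0514 to 0.243), as did limma-voom. Dnajb9, a co-chaperone of the unfolded protein response, had 95.7 and 82.2 CPM in the Dicer knockout, against 29.1 and 21.1 CPM in WT, and rose by 1.83 ± 0.48 (edgeR adjusted p = 0.0322), which was lost without any Dicer or WT library (0.0852 to 0.239). Hspa5, the main ER chaperone, had 5618 and 3667 CPM in the Dicer knockout, against 3992 and 2778 CPM in WT, and the libraries overlapped.

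Among the collagen chains themselves, 14 of 34 listed were in the table, and the type IV chains Col4a1 and Col4a2 were the ones with the largest drop in the Drosha and Dicer knockouts and the libraries labelled Ago1&Ago2 double knockout. Col4a1 had 900.2 and 71.7 CPM in the libraries labelled Dgcr8 knockout, 80.7 and 148.5 CPM in the Drosha knockout, 109 and 64.5 CPM in the Dicer knockout, and 53.8 and 37.5 CPM in the libraries labelled Ago1&Ago2 double knockout, against 1455 and 1685 CPM in WT. The first library labelled Dgcr8 knockout was again the one nearest to WT. Col4a1 fell, with a log2 fold change of -3.77 ± 0.86 in the Drosha knockout (edgeR adjusted p = 0.0368), of -4.17 ± 0.87 in the Dicer knockout (edgeR adjusted p = 0.0123) and of -5.11 ± 0.91 in the libraries labelled Ago1&Ago2 double knockout (edgeR adjusted p = 0.0170). These calls were lost without either library of the knockout compared, without the second WT library and, other than for Dicer, without the first, and for Drosha also without the second Dicer library (edgeR adjusted p 0.0547 to 0.208), and limma-voom did not call Col4a1 in the Drosha knockout.

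Other chains went both ways. By edgeR 7 of the 14 chains were called lower and 2 higher in the Dicer knockout, 2 lower and 2 higher in the Drosha knockout, 2 lower and 1 higher in the libraries labelled Ago1&Ago2 double knockout, and 0 in the libraries labelled Dgcr8 knockout, where 4 had an unadjusted p under 0.05, DESeq2 called 1 and limma-voom 0. DESeq2 called 7 lower and 2 higher in the Dicer knockout, 2 lower and 2 higher in the Drosha knockout, and 2 lower and 2 higher in the libraries labelled Ago1&Ago2 double knockout. Limma-voom called 3 lower and 2 higher, 0 lower and 1 higher, and 3 lower and 1 higher in the same order. Of all genes, in that order, edgeR called 413, 106 and 99 lower, DESeq2 684, 341 and 329, and limma-voom 246, 12 and 426. The edgeR count of lower chains dropped to 0 in each of these 3 groups without the second WT library, and in the Drosha knockout and the libraries labelled Ago1&Ago2 double knockout also without the first WT library or either library of the knockout, and in the Drosha knockout also without the second Dicer library. Col2a1, the cartilage collagen chain, had 48.1 and 23.2 CPM in the Dicer knockout, against 9.40 and 2.82 CPM in WT, and rose by 2.60 ± 0.62 on the log2 scale (edgeR adjusted p = 0.0212), a call lost without the first Dicer or the second WT library (0.180 and 0.185). Of the genes that process or crosslink collagen outside the cell, 7 of 14 listed were in the table, and edgeR called 3 higher and 1 lower in the Dicer knockout and 1 higher in the libraries labelled Ago1&Ago2 double knockout. Limma-voom called 2 higher and 0 lower in the Dicer knockout. DESeq2 called 2 higher and 2 lower in the Drosha knockout. In the libraries labelled Ago1&Ago2 double knockout DESeq2 and limma-voom each called 1 higher and 1 lower. Loxl2, the gene called lower, had 0.791 and 2.21 CPM in the Dicer knockout, against 15.9 and 12.4 CPM in WT. It fell by 3.46 ± 0.99 on the log2 scale (edgeR adjusted p = 0.0449), lost without any Dicer or WT library (0.106 to 0.322). Loxl4, a crosslinking oxidase, had 40.9 and 22.6 CPM in the Dicer knockout, against 1.75 and 0.954 CPM in WT, and rose by 4.60 ± 0.76 (edgeR adjusted p = 0.0042), lost without the second WT library (0.0727). Adamts14, a procollagen protease, had 91.0 and 47.0 CPM in the libraries labelled Ago1&Ago2 double knockout, against 12.4 and 9.62 CPM in WT, and rose by 2.65 ± 0.39 (edgeR adjusted p = 0.0096), lost without either WT library (0.0600 and 0.173).

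The markers of primitive and parietal endoderm, the cells that lay down type IV collagen in the early embryo, were lower in every knockout library than in WT. Of 12 listed, 10 were in the table, and their summed level was 8032 and 3265 CPM in the libraries labelled Dgcr8 knockout, 4470 and 3331 CPM in the Drosha knockout, 4460 and 2913 CPM in the Dicer knockout, and 4834 and 3303 CPM in the libraries labelled Ago1&Ago2 double knockout, against 12567 and 14422 CPM in WT. Most of each sum came from the laminin genes Lama1, Lamb1 and Lamc1, at 3684, 2615 and 4800 CPM in the first WT library. Single markers fell by unlike amounts. Lamc1 had 3490 and 2160 CPM in the Dicer knockout, against 4800 and 5810 CPM in WT. Cubn had 3.76 and 3.31 CPM in the Dicer knockout, against 1052 and 981 CPM in WT. By edgeR 0, 4, 8 and 8 of the 10 were called lower in the Dgcr8, Drosha, Dicer and Ago1&Ago2 groups, against 0.0182%, 0.966%, 3.76% and 0.902% of all genes. In the libraries labelled Dgcr8 knockout 5 of 10 were lower at an unadjusted p under 0.05 by edgeR, against 4.71% of all genes. DESeq2 called 1 there and limma-voom 0. In the other 3 groups DESeq2 called 9, 9 and 8 lower, against 341, 684 and 329 of all 10978 genes. Limma-voom called 1, 3 and 9 lower, against 12, 246 and 426 of all genes. The edgeR count dropped to 0 in the Drosha knockout without either Drosha or either WT library, to 1 in the Dicer knockout without the first Dicer library, and to 0 in the libraries labelled Ago1&Ago2 double knockout without the second WT library. Sox17 had 4.84 CPM in the first library labelled Dgcr8 knockout and at most 0.598 CPM in the other 7 knockout libraries, against 17.1 and 32.9 CPM in WT. Counts of Gata6 were 0 in the first Drosha library, both Dicer libraries and the first library labelled Ago1&Ago2 double knockout, and counts of Sox17 were 0 in the second Dicer library and the first labelled Ago1&Ago2 double knockout. The part of these markers in the members' differences was not tested, and fewer cells of a type cannot be told apart from less RNA per cell in such bulk libraries.

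**Figure D4:**
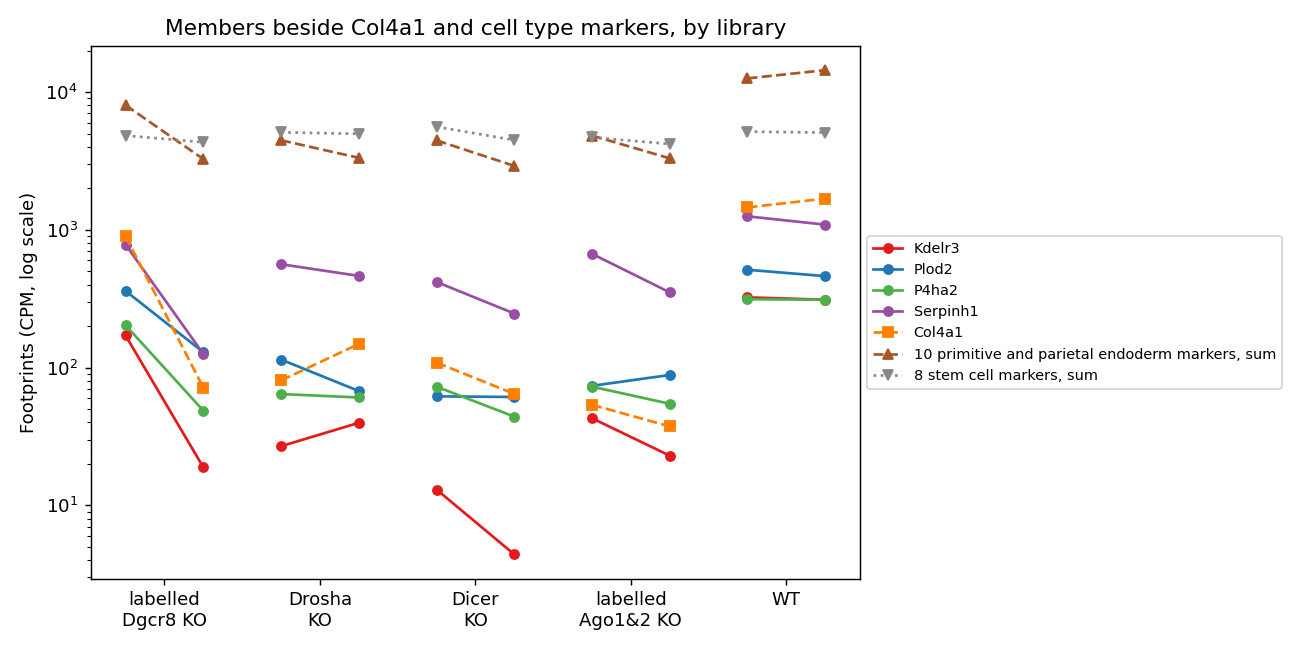
Footprint levels in CPM on a log axis of Kdelr3, Plod2, P4ha2, Serpinh1, Col4a1 and the summed endoderm and stem cell markers, with the 2 libraries of a group joined by a line and WT at the right. Col4a1 and the endoderm markers are highest in WT and next highest in the first library labelled Dgcr8 knockout, as are the members drawn. Most of the endoderm sum is that of the laminin genes Lama1, Lamb1 and Lamc1. The sum of the stem cell markers lies between 4199 and 5599 CPM, although single markers within it differ from WT in both directions.

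Fibroblast markers were 2 of 8 in the table, Thy1 and Fn1. The fibrillar chains on that list, Col1a1, Col1a2, Col3a1 and Col5a2, were not among the rows analysed here. Trophectoderm markers, 5 of 8 in the table, summed to 157 and 228 CPM in the libraries labelled Dgcr8 knockout, 377 and 375 CPM in the Drosha knockout, 857 and 618 CPM in the Dicer knockout, and 184 and 205 CPM in the libraries labelled Ago1&Ago2 double knockout, against 150 and 182 CPM in WT. Among the stem cell markers Klf4 was called lower in the Dicer knockout, at 17.4 and 22.1 CPM against 135 and 158 CPM in WT (log2 fold change -2.91 ± 0.36, edgeR adjusted p = 0.0018). Klf4 was also called lower in the Drosha knockout (-1.52 ± 0.34, edgeR adjusted p = 0.0346) and in the libraries labelled Ago1&Ago2 double knockout (-1.62 ± 0.33, edgeR adjusted p = 0.0275). The Drosha call was lost with limma-voom and without any 1 Drosha, Dicer or WT library (edgeR adjusted p 0.0514 to 0.271), and the Ago1&Ago2 call without the second library of that group or either WT library (0.0982 to 0.261).

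The lists too depended on the first library labelled Dgcr8 knockout. In that knockout the medians of the log2 fold change without it were -4.57 for the endoderm markers and -1.35 for the collagen chains. With both libraries they were -1.82 and -0.58. Without it the medians were -0.61 for the general ER chaperones, against -0.22, and -0.47 for the other genes of collagen folding and export, against -0.16. That of the genes that respond to low oxygen was -0.82, against -0.90. The median of the 10 members was -1.29, against -0.70, and that of all genes -0.03, against 0.02.

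Genes that respond to low oxygen, 18 of 20 in the table, had medians of -0.90 in the libraries labelled Dgcr8 knockout, -0.98 in the Drosha knockout, -0.83 in the Dicer knockout and -0.65 in the libraries labelled Ago1&Ago2 double knockout. By edgeR 4 were called lower and 1 higher in the Dicer knockout (limma-voom 3 lower and 1 higher). In the other 3 groups edgeR called 0. In the order Dgcr8, Drosha and Ago1&Ago2, 7, 8 and 5 of 18 were lower at an unadjusted p under 0.05. In each of these groups 1 was higher at that level. Of all 10978 genes, 1077, 2111 and 2163 passed it in either direction by edgeR. DESeq2 called 2, 5 and 2 of 18, against 160, 972 and 932 of all genes. Limma-voom called 0, 0 and 3, against 15, 111 and 942. The glucose transporter Slc2a1 had 1477 and 1170 CPM in the Dicer knockout, against 4345 and 3294 CPM in WT, and fell by 1.53 ± 0.32 on the log2 scale (edgeR adjusted p = 0.0127). Slc2a3, a second glucose transporter, had 2045 and 1571 CPM in the Dicer knockout, against 6979 and 5054 CPM in WT, and fell by 1.73 ± 0.31 (edgeR adjusted p = 0.0061). The call of Slc2a1 was lost without any Dicer or WT library (edgeR adjusted p 0.0632 to 0.105), and that of Slc2a3 without the second Dicer or the first WT library (0.0614 and 0.0652). Kdm3a, a histone demethylase gene of the same list, went the other way, with 532 and 447 CPM in the Dicer knockout against 214 and 194 CPM in WT, and rose by 1.26 ± 0.31 (edgeR adjusted p = 0.0246), lost without any Dicer or WT library (0.0693 to 0.210).

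The members did not all follow the same pattern over the 10 libraries. The Pearson r of each gene's log2 CPM with the mean of the other 9 was 0.94 for Kdelr2 and 0.85 for P4ha1, and -0.18 for Plod3, whose lowest pairwise r was -0.66 with Plod2. The 8 genes whose log2 CPM was most like the mean standardised pattern of the 10 members were Slc3a2 (r = 0.98), Hsd17b12 (0.97), Prdx4 (0.96), Tmx2 (0.96), Msmo1 (0.96), Timmdc1 (0.95), Elovl5 (0.95) and Cd320 (0.95). Slc3a2, the heavy chain of amino acid exchangers, had a mean of 837 CPM in the libraries labelled Dgcr8 knockout, 640 in the Drosha knockout, 672 in the Dicer knockout and 936 in the libraries labelled Ago1&Ago2 double knockout, against 1547 CPM in WT. Prdx4, an ER peroxidase, had means of 157, 116, 119 and 149 CPM in the same knockout groups, against 213 CPM in WT. These values of r are descriptions over 10 libraries that share their depth and scaling.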

How the data were processed

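The deposited table, made by the authors, holds raw whole-number counts of ribosome footprint reads per gene, 1 column per library. Trimmomatic and Bowtie2 with the mouse builds mm10 and GRCm38 and the Drosophila builds dm6 and BDGP6 are named in the submitters' processing notes; the versions, the counting tool, the annotation and the strand setting are not given in the sources used here. Footprints were made with RNase I and Drosophila spike-ins were added, per the labels' protocols, and the table held no spike-in rows. Columns were matched by the library name in each sample's description, and the replicate numbers are those of the titles. The column names number the Ago1&Ago2 libraries 2 and 3, while their titles number them 1 and 2.

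In R 4.3.3, edgeR 4.0.16 scaled libraries by TMM, filterByExpr removed 33 genes and left 10978, and all 10 libraries entered a quasi-likelihood fit of the 5 groups with 5 residual degrees of freedom. Each knockout and the mean of the 4 were set against WT, and the knockouts against one another in 6 pairs. P-values are 2-sided and adjusted by Benjamini-Hochberg over all genes, with a threshold of 0.05. The SE was taken as the size of the log2 fold change divided by the root of F. CPM uses the scaled totals, and per-kilobase values the longest coding sequence in GENCODE M21 on GRCm38. The test was also run on simulated counts with planted changes, which checks the fitting steps and does not bear on outlying libraries. A count of 3 corresponds to 0.0371 to 1.71 CPM over the libraries, and the values cover counting error and the spread of 2 libraries.

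Alternatives were other scalings, no filter, DESeq2 1.42.0, limma-voom (limma 3.58.1), a replicate block, fits of the compared groups alone, and leaving out each library. The fit without both libraries labelled Dgcr8 knockout was chosen after seeing the data, and its mean is over the other 3 knockouts. The separate account of results without the first of these libraries was also chosen after seeing the data. The members and lists were chosen with earlier results of these data known. Named are the 10 members, the targeted genes, up to 4 genes per list and comparison, by smallest adjusted p, and the 8 genes closest to the members' mean pattern. Hspa5, Ppib, Dppa5a, Zfp42 and the endoderm genes given by their counts were chosen after their values were seen. Promoter windows are from RefSeq.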

Additional observations from a re-analysis of the deposited data

Results flagged for a closer look

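For 2 of the 10 genes the change against WT differed between knockouts by a test of the difference itself. Plod2 was higher in the libraries labelled Dgcr8 knockout than in the Dicer knockout by 2.00 on the log2 scale (edgeR adjusted p = 0.0286). Kdelr3 was higher by 3.34 (edgeR adjusted p = 0.0455). In this comparison edgeR called 4.07% of all genes, and it called none of the 10 in the other comparisons between knockouts. Both calls were lost with limma-voom (adjusted p = 0.0502 for Plod2 and 0.314 for Kdelr3). They were also lost without either Dicer library, at differences of 1.99 and 2.02 for Plod2 and 2.88 and 4.46 for Kdelr3. The libraries labelled Dgcr8 knockout were far apart, at 361 and 130 CPM for Plod2 and 171 and 18.9 CPM for Kdelr3, against 61.9 and 61.2 CPM and 13.1 and 4.41 CPM in the Dicer knockout. Without the first library labelled Dgcr8 knockout the differences were 1.07 and 0.99 (edgeR adjusted p = 0.168 and 0.400). The part of that library's likeness to WT in the 2 differences was measured by this omission alone.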

How the results depend on the processing

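Of 880 recomputed log2 fold changes of the members against WT, 777 kept their direction and side of the threshold, 56 lost and 29 gained a call, and 18 changed sign. The sign changes were at values near 0. Plod3 in the libraries labelled Dgcr8 knockout was 0.0058, not -0.01, with DESeq2-type size factors and with DESeq2, 0.022 with total counts, 0.00049 with limma-voom and 0.018 with the replicate block, and P4hb in the libraries labelled Ago1&Ago2 double knockout was 0.0069 with that block. Other scalings and no filter kept every count of members and genes called within 1.5 times. DESeq2 called 160 genes in the libraries labelled Dgcr8 knockout, 972 in Drosha, 1874 in Dicer, 932 in the libraries labelled Ago1&Ago2 double knockout and 1444 for the mean, against 8, 378, 1220, 316 and 776, and 5 members between knockouts against 2. Limma-voom called 15 genes for Dgcr8, 111 for Drosha and 942 for Ago1&Ago2, with 1 member in Drosha and 0 between knockouts. With the groups compared alone 0 genes were called for Dgcr8, 3224 for Dicer and 536 for Ago1&Ago2, with 7 members in Dicer, 1 of them higher (Plod3), and 1 between knockouts; the mean could not be fitted that way. Without both libraries labelled Dgcr8 knockout 491 genes were called for Ago1&Ago2 and 1368 for the mean. The causes were not tested.

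Replicate numbers pair no samples by the labels, and for the Ago1&Ago2 libraries the titles' numbers, used here, are not those of the columns. By the titles' numbers, the members took a larger share of the counts in the first than in the second library of every group. The cause of this shift was not tested. With the replicate block 14, 770, 1877, 738 and 1410 genes were called for Dgcr8, Drosha, Dicer, Ago1&Ago2 and the mean, with 0, 5, 6, 3 and 6 members; same-numbered deviations had r from 0.061 to 0.287.

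Leaving out 1 library gave 0 to 107 genes and 0 to 4 members for Dgcr8, 1 to 514 and 0 to 4 for Drosha, 139 to 1503 and 2 to 6 for Dicer, 3 to 494 and 0 to 3 for Ago1&Ago2, 3 to 1100 and 0 to 5 for the mean, and 0 to 5 members between knockouts. The log2 fold changes that changed sign then spanned -0.18 to 0.20 (Plod3) and -0.37 to 0.063 (P4hb) for Dgcr8, -0.35 to 0.13 (Colgalt1) for Drosha, -0.31 to 0.11 (P4hb) for Dicer, -0.22 to 0.21 (P4hb) and -0.48 to 0.17 (Colgalt1) for Ago1&Ago2, and -0.41 to 0.0087 (P4hb) for the mean. The Drosha and Dicer libraries had 1754710 to 5432599 counts, and the second library labelled Dgcr8 knockout had 4955916, which limits their precision.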
